A study of Mus musculus with 8 samples.

Results

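Interferon-stimulated genes are the genes that cells switch on when they sense an interferon. A set of 41 of them was followed in mouse knee joints, in 4 control libraries and 4 that the labels call Loxl2 knockouts. Loxl2 encodes lysyl oxidase-like 2, which crosslinks collagen. The genes were chosen by name from the known response to type I and type II interferon, by a rule that uses no measured value although earlier results of these data were known, and all 41 names matched 1 row each of the 20681 rows of the table. Values are normalised read counts, the reads of a gene divided by a size factor of the library. A total of 39 of the 41 genes reached a value of 10 in 4 or more libraries and were tested, while Mx1 and Ifi44 were too low.

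The mice carried Acan-Cre together with loxP-flanked Loxl2 alleles (Loxl2 fl/fl). The aggrecan gene Acan, whose control elements drive the Cre recombinase, is active mainly in cartilage cells, while a knee joint also holds many other cell types. The control libraries are described as vehicle-treated and carry wt in their library names, the others carry ko, and all 8 names carry DMM. The labels do not spell this out, but in osteoarthritis work it usually means surgical destabilisation of the medial meniscus. The labels give no age or sex and do not say whether the knockout group also received vehicle. The libraries held 13991000 to 17411617 reads assigned to genes. Nothing in the labels says that the replicates came from separate animals, so p-values measure the spread between these libraries. The targeted gene went against the labels. Loxl2 had 282, 349, 1135 and 311 normalised reads in the control libraries and 893, 1468, 960.3 and 1518 in the libraries labelled knockout (here and below in the order of replicates 1 to 4), a log2 difference of 1.44 ± 0.40 (SE, adjusted p by limma 0.0294, p by exact permutation 0.0857). The groups are therefore called by their labels, and every direction below is that of the libraries labelled knockout against those labelled control. Chondrocyte markers were present in all libraries, with summed values of the 10 markers from 3774 to 13259, although Matn3 was at 0 in 1 library or more. Comp alone made 2565 of the lowest sum, in control replicate 4, and 11075 of the highest, in knockout replicate 4. Acan was at 186 and 184 in these libraries, so the sums do not give the level of cartilage cells. The tissue was mixed, since 18 skeletal muscle markers held 15.8% to 16.4% of all values in the control libraries and 9.71% to 12.7% in those labelled knockout.

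Type I interferons signal through the receptor chains Ifnar1 and Ifnar2, and interferon gamma, the type II interferon, through Ifngr1 and Ifngr2. The Janus kinases bound to these receptors phosphorylate STAT proteins. A complex that holds Stat2 and Irf9 binds the interferon-stimulated response element (ISRE), and the gamma-activated site (GAS) is the element of the response to interferon gamma. In joints, macrophages and synovial fibroblasts are among the cells that respond to interferons.

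The letters through which the response is known to run were looked for in the members' promoters. RefSeq windows on GRCm38.p6, the build of mm10, which reach from 250 bases before each annotated start to 50 after it, were found for 32 of the 41 genes. An ISRE core was searched as GAAA, any 2 bases and GAAA again and a GAS core as TTCNNNGAA, each on both strands, and overlapping matches were all counted. The ISRE core stood in 16 of 39 member windows (41%) and in 3.44% of all 32851 windows, and the GAS core in 10 of 39 (25.6%) against 8.3%. A match is a description of the letters and shows no binding. The 250 bases before the start are shown for the most abundant member with an ISRE core in each of 5 roles, with the core in capitals, because these genes stand for the groups described below (IFIT, OAS, ISG15 system, transcription factors and GTPases). In Isg15 and Oas1a the capitals cover overlapping cores.
Ifit3, chr19:34583279-34583528 (plus strand): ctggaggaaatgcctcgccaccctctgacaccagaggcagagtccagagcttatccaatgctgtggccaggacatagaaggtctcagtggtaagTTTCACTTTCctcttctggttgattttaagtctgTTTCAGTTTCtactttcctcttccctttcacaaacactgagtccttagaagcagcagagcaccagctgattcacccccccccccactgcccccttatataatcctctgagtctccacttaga
Oas1a, chr5:120907526-120907775 (minus strand): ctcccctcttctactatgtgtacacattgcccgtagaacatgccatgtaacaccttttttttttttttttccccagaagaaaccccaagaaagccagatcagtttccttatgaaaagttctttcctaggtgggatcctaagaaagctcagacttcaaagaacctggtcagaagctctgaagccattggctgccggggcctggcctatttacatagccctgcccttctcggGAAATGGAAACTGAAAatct
Isg15, chr4:156200819-156201068 (minus strand): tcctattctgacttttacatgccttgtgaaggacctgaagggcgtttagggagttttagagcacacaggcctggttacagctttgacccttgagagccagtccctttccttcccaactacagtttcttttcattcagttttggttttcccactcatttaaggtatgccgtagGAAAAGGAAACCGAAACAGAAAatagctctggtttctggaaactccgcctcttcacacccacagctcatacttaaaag
Stat2, chr10:128270248-128270497 (plus strand): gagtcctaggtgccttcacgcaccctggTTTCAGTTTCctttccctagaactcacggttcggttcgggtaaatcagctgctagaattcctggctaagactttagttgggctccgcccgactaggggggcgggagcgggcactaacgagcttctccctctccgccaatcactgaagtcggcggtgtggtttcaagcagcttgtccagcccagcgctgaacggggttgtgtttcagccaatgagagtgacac
Igtp, chr11:58199306-58199555 (plus strand): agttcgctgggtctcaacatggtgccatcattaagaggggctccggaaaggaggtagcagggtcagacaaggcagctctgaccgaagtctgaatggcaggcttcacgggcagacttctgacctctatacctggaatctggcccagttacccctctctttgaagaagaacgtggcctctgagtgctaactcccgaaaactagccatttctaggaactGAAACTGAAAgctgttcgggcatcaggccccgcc
Bst2 and Ddx58, the members called below, also held an ISRE core in their windows. The windows of Psmb8, Psmb9 and Tap1 held no ISRE core, and no window of that role is shown. Among the tested members with a window, the median log2 difference between the groups was 0.37 for the 16 with an ISRE core and 0.26 for the 15 without, and the ranges overlapped widely (-1.30 to 1.03 and -0.56 to 0.90). For the GAS core the medians were 0.51 for the 10 with it and 0.24 for the 21 without. Those ranges overlapped widely too (-0.56 to 1.03 and -1.30 to 0.92), and neither contrast was tested.

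As a set the 41 genes showed few differences between the groups. Of the 39 tested, 2 rose in the libraries labelled knockout, Bst2 and Ddx58, and 0 fell, at a limma adjusted p under 0.05. Among all 14949 genes tested, 11.6% were called higher and 11.6% lower. The members' share called higher, 5.13%, was thus not above that background. An unadjusted p under 0.05 was found for 9 of the 39 members and for 38.4% of all tested genes. The groups did not overlap for Ddx58 and Zbp1, both higher, while 11.7% of all tested genes had separate groups with the knockout libraries higher and 13.4% with them lower. A log2 difference above 0 was seen for 31 of 39 members and for 50.1% of all genes, and the members' median was 0.34 beside 0.00 for all genes.

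The count of called members depended on the libraries and the method. Without knockout replicate 1 there were 0 called members (background 8.05% called higher), and there were also 0 without control replicate 4 or knockout replicate 4. The median of the members without knockout replicate 1 was 0.19. edgeR on whole reads called 2 members, Ddx58 and Oas1a (background 11.3%), and DESeq2 called 5, with Bst2, Gbp3 and Psmb8 beside those 2 (background 14.3%). Each library was also scaled without 18 skeletal muscle, 9 erythroid and 12 neutrophil markers and without the 50 highest genes. Other genes of these cell types were kept unless they were among those 50. In that fit 5 members were called higher, Oas1a, Bst2, Trim25, Ddx58 and Psmb8. That scaling moved the median difference of all genes to 0.15 and raised the background to 18.2% called higher, so that of all calls 77.8% were higher against 50% under the deposited scaling.

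**Figure D1:**
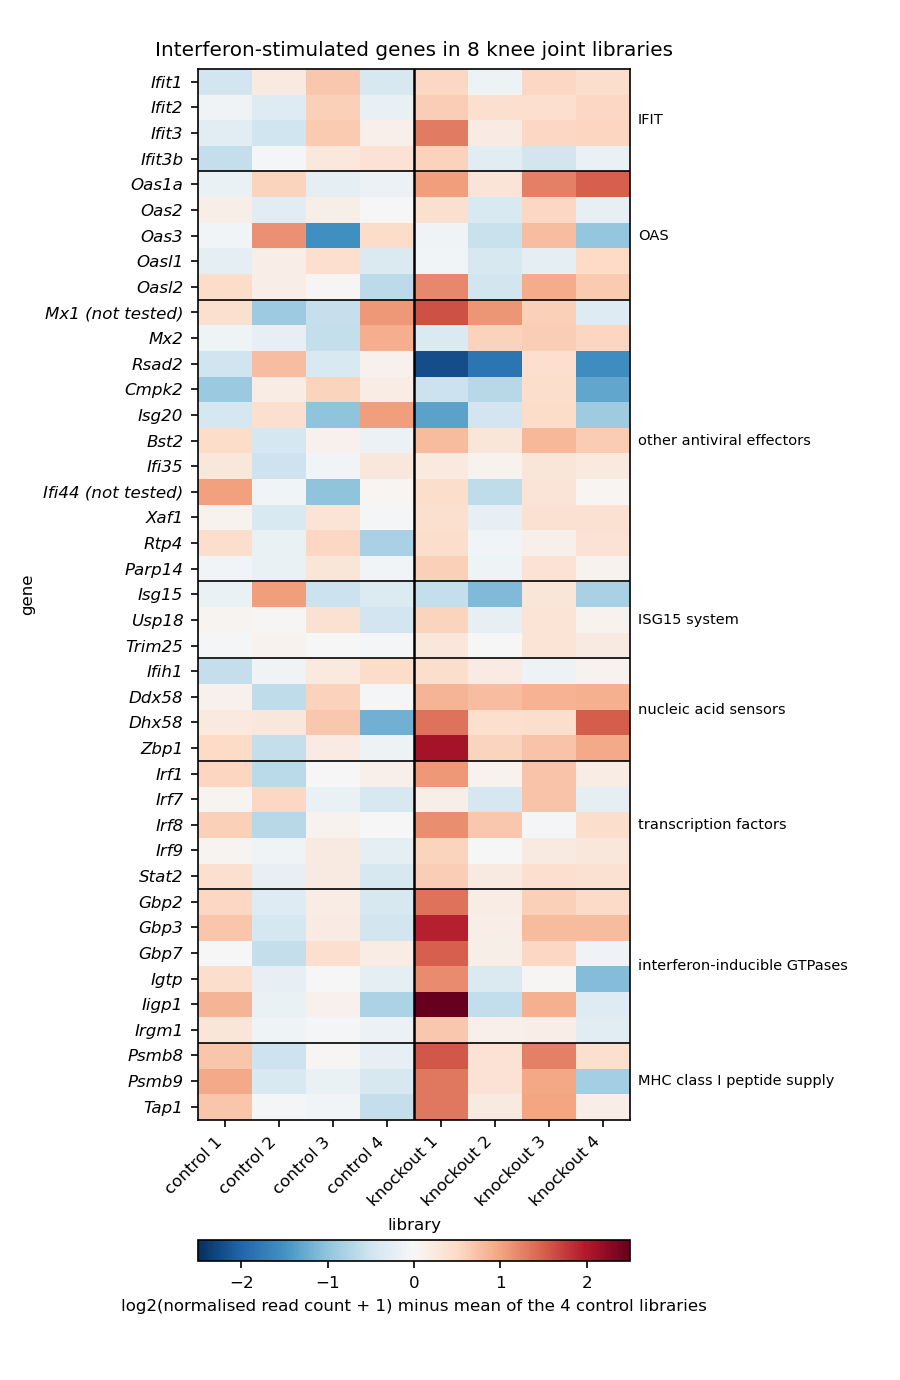
Each row is 1 of the 41 interferon-stimulated genes and each column 1 library; colour gives log2(normalised read count + 1) minus the mean of the 4 control libraries, and lines separate the roles. Knockout replicate 1 holds the highest value of 22 of the 41 genes, and Rsad2 is lower in knockout replicates 1, 2 and 4 than in any control library.

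The cytosolic sensors held the clearest difference. Ddx58 encodes RIG-I, which recognises viral RNA with a free triphosphate end. Its normalised read count was 94.1, 55.5, 129.9 and 85.4 in the control libraries and 158, 149.7, 159.9 and 162 in those labelled knockout. All knockout libraries lay above all control libraries, and they differed little among themselves (157 ± 5.37, SD, n = 4, against 91.2 ± 30.6). The log2 difference was 0.84 ± 0.23 (SE, adjusted p by limma 0.0266, p by exact permutation 0.0286, the smallest that 4 against 4 allows). The limma call was lost without control replicate 4 and without knockout replicate 1, 2 or 4, and under quantile normalisation, with adjusted p-values of up to 0.0706.

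Zbp1, a sensor of nucleic acids in the Z form that can trigger necroptosis, had 14.1, 6.06, 11.2 and 8.76 normalised reads in the control libraries and 43.9, 14.5, 16.3 and 19.4 in those labelled knockout. The groups were separate, by a narrow margin apart from knockout replicate 1, and the difference of 1.07 ± 0.42 (SE) did not pass the test across all genes (adjusted p by limma 0.0918, p by exact permutation 0.0286). Dhx58, which encodes the RIG-I relative LGP2, overlaps an antisense gene, Dhx58os, and the strand use in counting is not given in the sources used here. It had means of 21.1 ± 9.70 and 39.5 ± 15.9 (log2 difference 0.93, limma adjusted p = 0.154). Ifih1, which encodes the sensor MDA5 of long double-stranded RNA, had means of 80.6 ± 24.4 and 87.2 ± 14.6 and a difference of 0.15.

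Bst2, the other called member, encodes tetherin, a membrane protein that holds budding virus particles at the cell surface. It had 221, 117, 173 and 145 normalised reads in the control libraries and 278, 196, 283 and 247 in those labelled knockout. Knockout replicate 2 lay below control replicate 1, so the groups overlapped. The log2 difference was 0.64 ± 0.20 (SE, adjusted p by limma 0.0461, p by exact permutation 0.0571). The call was kept only without control replicate 1 or knockout replicate 2 when 1 of the 8 libraries was left out, and the adjusted p by limma, edgeR or DESeq2 over all alternatives ran from 0.0217 to 0.112. Per kilobase of exon Bst2 had the highest level of the members, with a mean of 229.7 normalised reads per kilobase, ahead of Igtp with 149 and Ifi35 with 105, while Ifi44 (1.54) and Mx1 (1.997) were lowest.

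**Figure D2:**
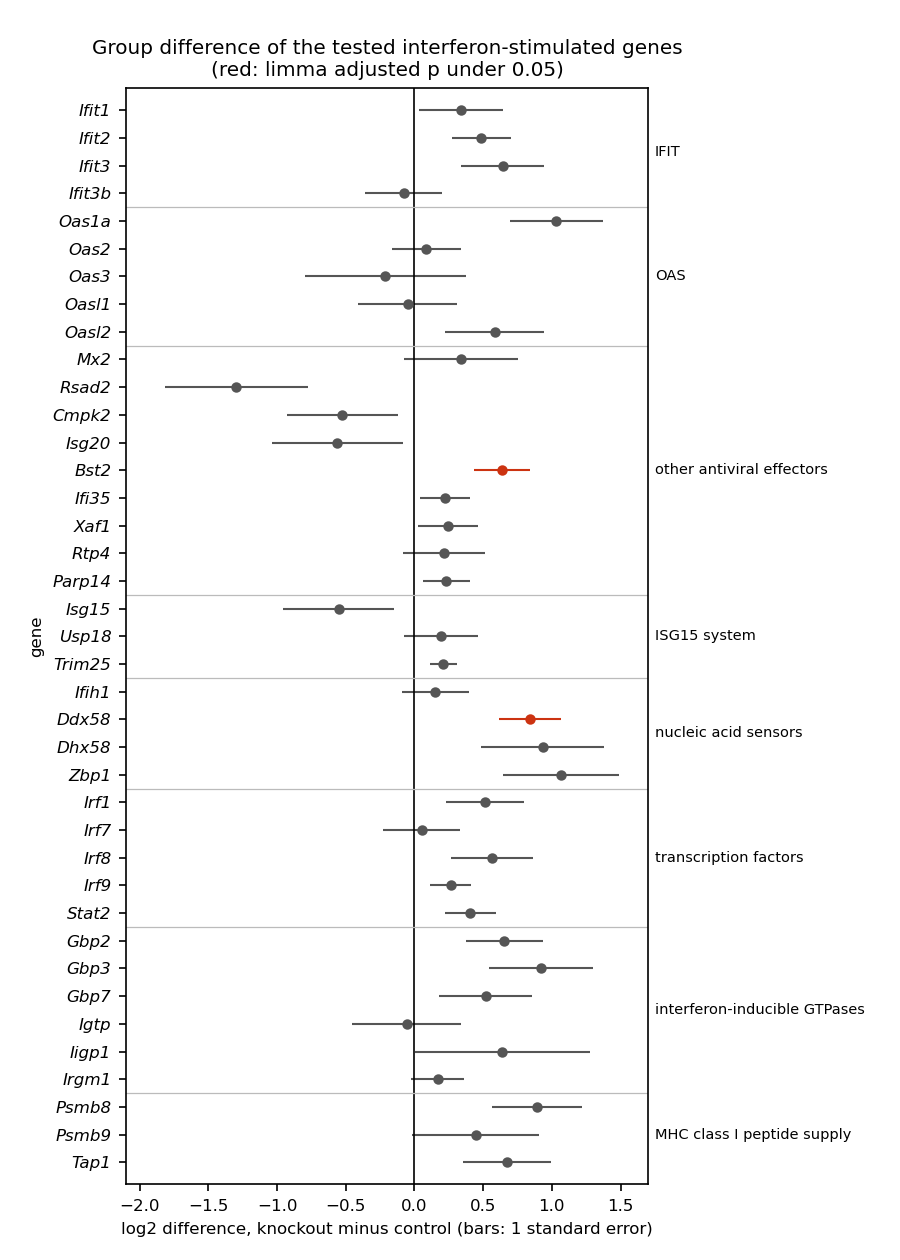
Points give the log2 difference between the groups (labelled knockout minus labelled control) for the 39 tested genes, and bars 1 standard error of the limma fit. Only Bst2 and Ddx58 (red) passed an adjusted p under 0.05, and Rsad2 has the lowest value, -1.30.

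The IFIT genes encode RNA-binding proteins that block translation of foreign RNA, and 0 of their 4 members passed the test. Ifit3, the most abundant, had 45.4, 39.4, 87.9 and 61.3 normalised reads in the control libraries and 139, 64.1, 80.5 and 81.9 in the others (log2 difference 0.64, limma adjusted p = 0.149). Control replicate 3 lay within the range of the knockout libraries. Ifit2 had a difference of 0.49 and Ifit1 of 0.34, while Ifit3b stood at -0.08. Ifit3 and Ifit3b are similar copies that lie close together on chromosome 19, at 34583531 to 34588731 and 34607970 to 34613401 (mm10). In GENCODE M21 transcripts 51.2% of the 50-base words of Ifit3 also occur in Ifit3b, so reads may have been split or dropped between them and their values are uncertain.

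The OAS genes, whose products make oligoadenylates that activate the RNA-cutting enzyme RNase L or are inactive relatives of such enzymes, likewise had 0 of 5 members called. Oasl2 had 90.9, 73.7, 67.3 and 41.6 normalised reads in the control libraries and 153, 47.9, 126 and 105 in those labelled knockout, a difference of 0.58 with overlapping groups (limma adjusted p = 0.264). Oas1a came nearest to a call. Its values were 11.9, 20.2, 11.2 and 12.05 in the control libraries and 28.9, 17.1, 33.7 and 39.6 in those labelled knockout. Only knockout replicate 2 lay within the control range, and the difference was 1.03 ± 0.34 (SE, adjusted p by limma 0.0526, p by exact permutation 0.0571). Of its 50-base words 57.6% also occur in Oas1g, so this count is uncertain too. Oas2, Oas3 and Oasl1 had differences of 0.08, -0.21 and -0.05.

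The ISG15 system attaches a ubiquitin-like tag to proteins. Trim25, a ubiquitin and ISG15 ligase that acts on RIG-I, was its most abundant member and was nearly level among the control libraries, with 344, 381, 358 and 348 normalised reads, beside 435, 356, 451 and 419. Its difference of 0.21 ± 0.10 (SE) did not pass (limma adjusted p = 0.154). Usp18, which removes the tag and also blocks the type I receptor, had a difference of 0.19. Isg15 itself had a lower mean in the group labelled knockout, 39.7 ± 19.01 against 60.7 ± 35.9, with the highest value, 114, in control replicate 2 (difference -0.55, limma adjusted p = 0.342).

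Transcription factors of the response were also without a call, although 5 of 5 had a difference above 0. Irf1, an early target of interferon gamma, had 268, 115, 184 and 200.5 normalised reads in the control libraries and 391, 194, 301 and 208 in those labelled knockout. Its highest control library lay above 2 of the knockout libraries, and the difference was 0.51 (limma adjusted p = 0.213). Stat2 differed by 0.41 (limma adjusted p = 0.135) and Irf9 by 0.26. Irf8, which also marks myeloid cells in the absence of interferon, differed by 0.56 (limma adjusted p = 0.198). Irf7, the amplifier of type I interferon production, differed by 0.05 and changed sign when control replicate 3 or 4 or knockout replicate 3 was left out.

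The interferon-inducible GTPases act in the defence against intracellular microbes and are strong targets of interferon gamma. None of the 6 passed the test, and in each the highest of the 8 values was that of knockout replicate 1. Iigp1 had 161, 79.7, 96.3 and 51.5 normalised reads in the control libraries and 548, 58.2, 166 and 71.3 in those labelled knockout. Knockout replicate 1 stood 5.55-fold above the mean of the other 3 knockout libraries, which lay on both sides of the control mean. With all libraries the difference was 0.64 ± 0.64 (SE, limma adjusted p = 0.494), and without knockout replicate 1 it was -0.02. Igtp (chromosome 11, 58199556 to 58207591, on the same strand as Irgm2, which overlaps it) had 377, 242, 279 and 239.9 normalised reads in the control libraries and 639, 218, 284 and 132 in the others. It was thus both highest and lowest in libraries labelled knockout, and its difference was -0.06. Gbp3, Gbp2, Gbp7 and Irgm1 differed by 0.92, 0.65, 0.52 and 0.17. The median over the 6 genes was 0.58 with all libraries and 0.10 without knockout replicate 1.

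**Figure D3:**
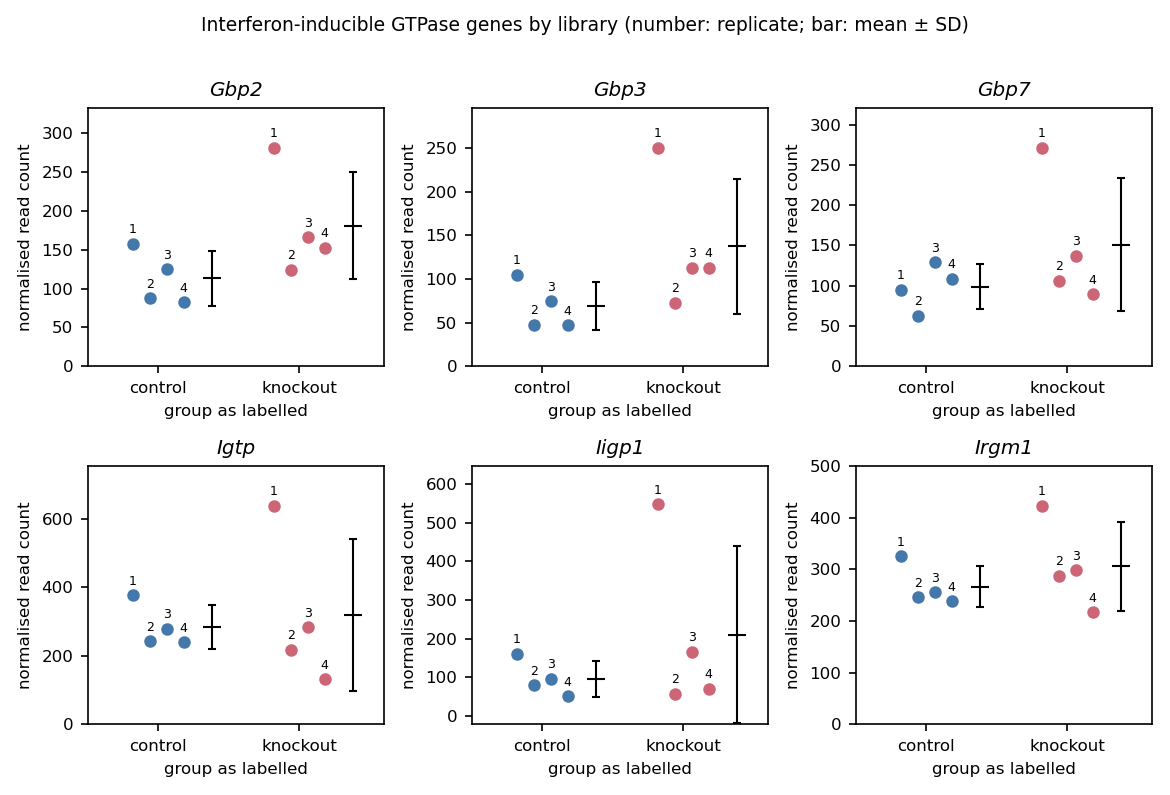
Normalised read counts of the 6 interferon-inducible GTPase genes in each library (number: replicate), with mean ± SD beside the points (n = 4 per group). Knockout replicate 1 is the highest point of every panel, for example 548 for Iigp1 and 639 for Igtp.

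The genes that supply peptides to MHC class I showed the same library on top. Psmb8 and Psmb9 encode immunoproteasome subunits and Tap1 a chain of the peptide transporter, and they lie next to each other on chromosome 17. Tap1 had 218, 130.2, 127 and 88.7 normalised reads in the control libraries and 335, 157, 268 and 149.6 in those labelled knockout. Control replicate 1 lay above 2 knockout libraries, and the difference of 0.67 did not pass (limma adjusted p = 0.151). Psmb8 differed by 0.90 ± 0.33 (SE, limma adjusted p = 0.074) and Psmb9 by 0.45. Tap1 and Psmb9 overlap on opposite strands, so that their reads were not necessarily kept apart. The same limit holds for Oas2, Oasl1, Ifi35, Rtp4, Usp18, Irf1, Irf7, Gbp2 and Psmb8, which each overlap a gene on the opposite strand. On the same strand, Rtp4, Parp14, Irf8, Irf9 and Gbp7 overlap another gene, as Igtp does.

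Knockout replicate 1 held the highest value of 22 of the 41 members, among them 6 of 6 GTPases, 3 of 3 MHC class I genes and 4 of 5 transcription factors. The same count over all genes is not given here, so this one has no background beside it. The summed value of this library over the members was 7082 normalised reads. It was 3971 to 5619 in the other libraries labelled knockout and 3825 to 4693 in the control libraries. Genes outside the 41 that were picked after their values were seen showed the same library on top. Cxcl9, a chemokine induced by interferon gamma, had 173 normalised reads there and 6.84 to 32.4 in the other 7 libraries, and Irgm2 had 776 there and 124 to 377 elsewhere. This library also had the highest summed values of the T and NK cell markers (155, against 37.0 to 127 in the others) and of the B cell markers (638, against 209 to 499.7). Cd3e, the most abundant of the T and NK cell markers, went the other way. It fell in the group labelled knockout (log2 difference -1.19, limma adjusted p = 0.0377), with 29.9 normalised reads in knockout replicate 1 and 29.9 to 80.04 in the control libraries. The marker sums are small, with Cd3d, Cd3g, Cd8a, Cd8b1, Trac, Klrb1c, Gzma and Prf1 each at 0 in at least 1 library. The part of these cells in the GTPase values was not tested. In such bulk tissue, more cells of a type and more RNA per cell cannot be told apart.

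A small set of antiviral genes had lower means in the group labelled knockout. Rsad2, which encodes viperin, an enzyme that makes a chain-terminating nucleotide, had 147, 353, 159 and 222 normalised reads in the control libraries and 43.9, 57.3, 277 and 69.5 in the others. Knockout replicates 1, 2 and 4 lay below every control library, and knockout replicate 3 lay above 3 of them. The log2 difference of -1.30 ± 0.52 (SE) did not pass (adjusted p by limma 0.0964, p by exact permutation 0.114). Without knockout replicate 3 it was -1.87 and passed (limma adjusted p = 0.00649), and Rsad2 was then the 1 member called lower, where 13.4% of all genes were. Cmpk2, which lies close to Rsad2 on chromosome 12 and encodes a mitochondrial nucleotide kinase, differed by -0.52 and Isg20, an RNA-degrading exonuclease, by -0.56, with limma adjusted p-values of 0.37 and 0.418.

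Knockout replicate 3 was the highest knockout library for Rsad2, Cmpk2, Isg20 and Isg15. Isg20 had 102, 184, 68.2 and 286 normalised reads in the control libraries and 53.9, 99.2, 191 and 73.9 in those labelled knockout. The summed values of 9 erythroid markers were 34039, 42974, 16826 and 99192 in the control libraries and 6154, 15176, 42712 and 4052 in those labelled knockout. In the control group the erythroid sum and Isg20 put the libraries in the same order, and in the group labelled knockout both were highest in replicate 3. That rank was not particular to erythroid markers. Replicate 3 was also the highest knockout library for the summed neutrophil, endothelial, conventional dendritic cell and skeletal muscle markers. The neutrophil sum was 2824 there and 1154 to 2122 in the other knockout libraries, and the endothelial sum 10241 against 5374 to 7894. The sums of the other marker lists were highest in another knockout library. Rsad2, Isg15 and Cmpk2 did not follow the erythroid order in the control group. Rsad2 and Isg15 were highest in control replicate 2 and Cmpk2 in control replicate 3, while the erythroid sum was highest in control replicate 4. By limma, 0 of the 9 erythroid markers were called, although 8 had an unadjusted p under 0.05. The part of any of these cell types in the values of Isg20 and Rsad2 was not tested.

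**Figure D4:**
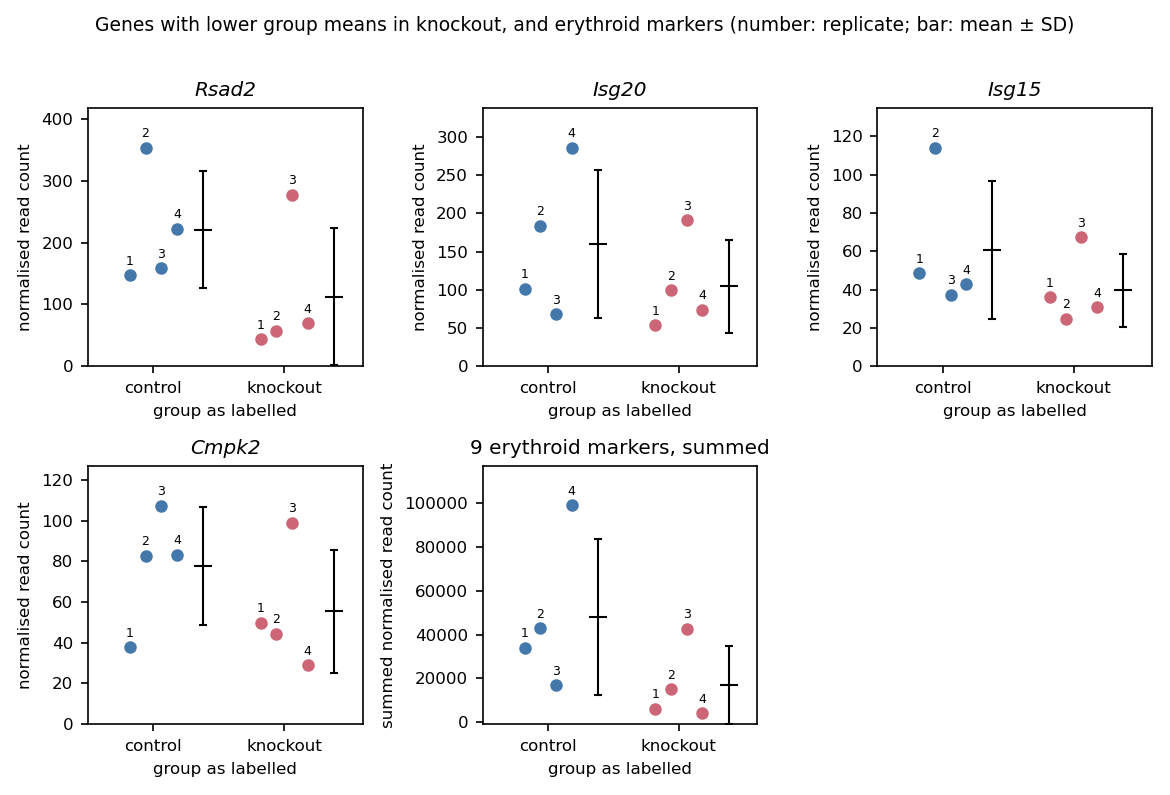
Normalised read counts of Rsad2, Isg20, Isg15 and Cmpk2 and the summed value of 9 erythroid markers in each library (number: replicate), with mean ± SD (n = 4 per group). Knockout replicate 3 is the highest knockout library in all 5 panels, with 277 for Rsad2 and 42712 for the erythroid sum.

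The remaining antiviral members were close between the groups. Parp14, Ifi35, Xaf1, Rtp4 and Mx2 had differences of 0.23, 0.22, 0.24, 0.21 and 0.34, none of which passed the test. Mx1 and Ifi44 had at most 16.0 and 18.4 normalised reads in a library and were not tested.

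The other genes of the pathway were described from lists of their own, whose counts stand beside the 11.6% of all tested genes called higher and 11.6% called lower. Of 6 interferon receptor genes 4 rose and 0 fell. Ifnar1 had 311, 305, 370.1 and 333 normalised reads in the control libraries and 526, 479.8, 456 and 598 in those labelled knockout. The groups did not overlap, the log2 difference was 0.64 ± 0.11 (SE, limma adjusted p = 0.00674), and the call was kept in all 18 alternatives. Ifngr1 rose by 0.56 (limma adjusted p = 0.0322), from 412 ± 88.7 to 596 ± 49.0, a call lost without control replicate 4 and without knockout replicate 1, 2 or 4. Ifnar2 rose by 0.61 and Il10rb, a chain shared by interferon lambda and interleukin-10 receptors, by 0.81, but their limma adjusted p-values of 0.0487 and 0.0474 were lost under quantile normalisation and with no filter on low values, and that of Ifnar2 also with edgeR. With 1 library left out, Ifnar2 kept its call without control replicate 1 or 3 or knockout replicate 3 and lost it in the other 5 fits, and Il10rb kept it only without control replicate 4. Ifngr2, the second chain of the interferon gamma receptor, was level at 1100.1 ± 106 and 1078 ± 72.1. Ifnlr1 was not called (limma adjusted p = 0.137), with at most 18.5 normalised reads in a library.

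Among the relay genes described, Stat3 rose, by 0.25 with separate groups (limma adjusted p = 0.0403), a call that held without control replicate 1 and was lost without any other library and with no filter on low values. Tyk2, Jak2 and Jak1 differed by 0.33, 0.01 and -0.21 and were not called. None of the 21 interferon ligand symbols looked up matched a row, and the ligands were not analysed here.

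Socs1 and Socs3, the suppressors of cytokine signalling in the list of negative regulators, both rose. Socs1, with the largest difference of the named pathway genes, inhibits the kinases of the interferon receptors. It had 34.6, 22.2, 54.2 and 32.9 normalised reads in the control libraries and 173, 118, 169.7 and 143 in those labelled knockout. The lowest knockout value lay above the highest control value, and the difference was 2.09 ± 0.26 (SE, limma adjusted p = 0.00397). Socs3, which is known mainly as an inhibitor of interleukin-6 family signalling, rose by 1.01 (limma adjusted p = 0.00422), from 244 ± 26.6 to 496 ± 90.2. Both calls were kept in all 18 alternatives. Among the 13 tested negative regulators 3 rose and 1 fell, the latter Ptpn11, which encodes the phosphatase SHP2 (difference -0.45, limma adjusted p = 0.015).

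**Figure D5:**
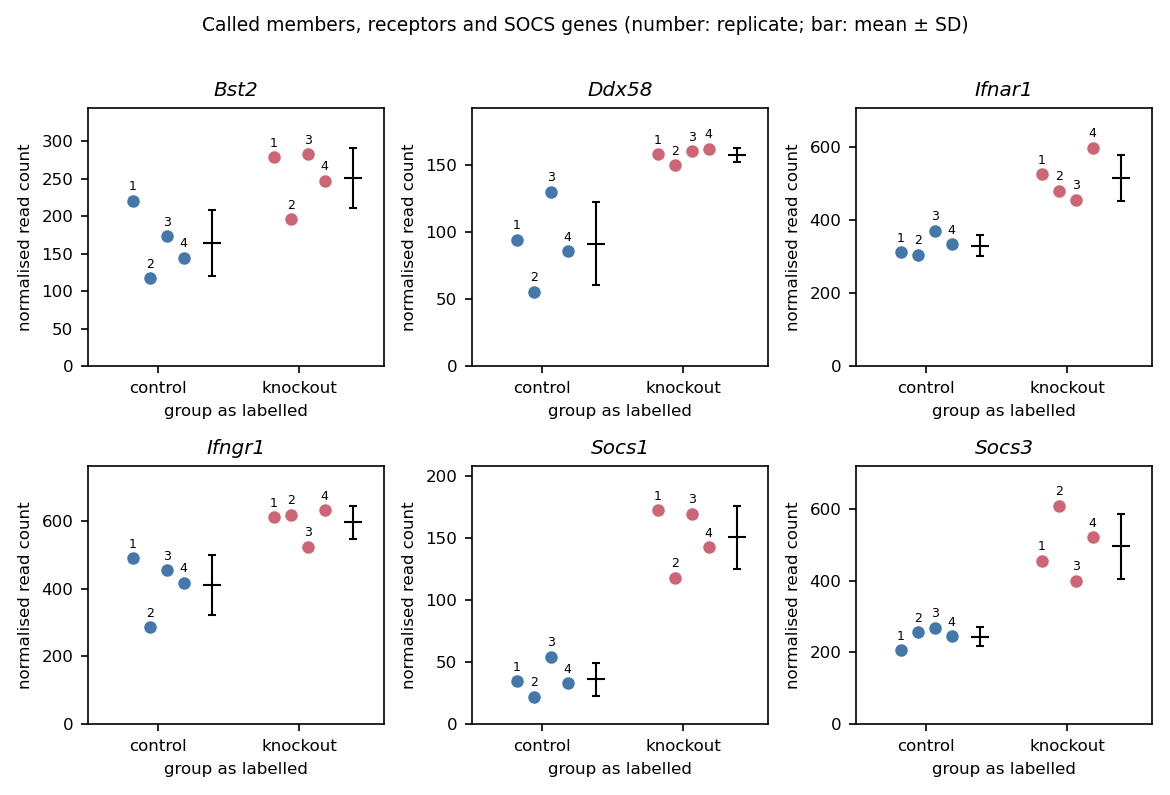
Normalised read counts of the called members Bst2 and Ddx58, the receptor genes Ifnar1 and Ifngr1 and the regulators Socs1 and Socs3 in each library (number: replicate), with mean ± SD (n = 4 per group). The groups are separate in every panel except that of Bst2, where knockout replicate 2 (196) lies below control replicate 1 (221).

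Upstream genes that sense nucleic acids or pass on that signal gave 4 calls higher and 1 lower among 15 tested. Tlr3, the endosomal receptor of double-stranded RNA, rose from 40.3 ± 11.4 to 79.6 ± 2.39 (difference 1.01, limma adjusted p = 0.0168, lost at 0.0623 under quantile normalisation), and Ikbke, a kinase that activates interferon regulatory factors, rose by 0.89 (limma adjusted p = 0.0393), a call lost under quantile normalisation, without control replicate 2 or 4 and without knockout replicate 1, 2 or 4. Mavs, the mitochondrial adaptor of RIG-I and MDA5, fell by 0.40 (limma adjusted p = 0.0167), from 863 ± 74.7 to 653 ± 50.04, so that it and Ddx58 differed in opposite directions. Under the scaling without muscle, erythroid and neutrophil markers and top genes neither Mavs nor Ptpn11 was called, and under quantile normalisation Ptpn11 was not. A further list of 49 tested interferon-stimulated genes gave 9 higher and 0 lower, with the smallest p-values for Ifitm2 (1.08), Ifitm3 (0.75) and Samd9l (0.96, log2 differences), and 18 tested genes of MHC class I presentation gave 4 higher and 0 lower, with the smallest p-values for Tapbp (0.61), Pdia3 (0.89) and H2-D1 (0.61). H2-D1 lost its call without control replicate 2, 3 or 4 and without knockout replicate 1 or 4. The Ifitm genes encode membrane proteins that hinder virus entry, Tapbp tapasin and Pdia3 a disulphide isomerase of the peptide-loading complex. In all, 25 of the 106 tested pathway genes outside the 41 were called higher and 2 lower. Leaving out knockout replicate 1, 2 or 4 brought the higher calls to 12, 16 and 11, and leaving out control replicate 2 to 13. Calls fell over all genes too. In the same order, those fits called 2417, 2398, 1751 and 1887 of all tested genes in either direction, against 3461 with all libraries.

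Markers of some other cell types moved beside these genes, where 11.6% of all tested genes were called higher and 11.6% lower. Of 12 macrophage markers 9 rose, with summed values of 2961 to 6846 in the control libraries and 10212 to 14544 in those labelled knockout. Of 12 fibroblast markers 10 rose (70664 to 199019 against 221236 to 379598), and of 18 skeletal muscle markers 7 fell. Of the tested endothelial (10), neutrophil (10), fat cell (8) and B cell (5) markers 0 were called. Of 10 chondrocyte markers 1 rose, and of 4 tested conventional dendritic cell markers 1 rose. Plasmacytoid dendritic cell markers, of a cell type known for making type I interferon, were low, with sums of 13.1 to 102 and 36.1 to 114 and with Ccr9, Spib and Klra17 at 0 in at least 1 library. The part of these cells in the differences of Bst2, Ddx58, the receptors and the Socs genes was not tested.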

How the data were processed

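RNA was measured in 8 knee joint samples by poly-A sequencing. Per the submitters' processing notes the authors used HISAT2, featureCounts and the build mm10, and per the labels DESeq2 for normalisation and filtering; versions, annotation and strand use are not given in the sources used here. The deposited values are a normalised signal, the reads per gene divided by a size factor. In each column 100% of values were whole multiples of the smallest positive one (tolerance 0.01 reads), so whole reads were recovered for the count tests. All value columns matched a sample by name (0 without a match).

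The scale of the fits is log2(value + 1), with a pseudocount of 1. Genes that reached 10 in 4 or more libraries were fitted with limma 3.58.1 (lmFit, eBayes with an intensity trend, 1 term for the group), with Benjamini-Hochberg adjustment over all 14949 tested genes. Fold changes of low genes are understated on this scale. Exact permutation tests are two-sided over the 70 assignments of libraries to groups. edgeR 4.0.16 and DESeq2 1.42.0 on recovered reads, other pseudocounts, filters and scalings, a replicate term and leaving out each library were tried as alternatives. The fits were tested on simulated data. Positions and transcripts are from GENCODE M21, promoters from RefSeq (GRCm38.p6).

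The members and the lists were chosen with earlier results of these data known. All 41 members are accounted for. Per-library values are given for called members with separate groups and for the most abundant member of each role without a call, and others were picked after their values were seen. Of each pathway list at most 3 called genes of smallest p are named, and the receptor and relay genes, apart from 1 that is not reported here. No 2 libraries of a group were the same within sampling noise (lowest chi-square divided by its degrees of freedom 23.51 over 12 pairs). The labels give no batch or date.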

Additional observations from a re-analysis of the deposited data

Results flagged for a closer look

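In 7 of the 128 sets of 4 values checked (64 genes in each group), 1 library lay far from the other 3, with a gap to its nearest neighbour, as a share of the group's range, above the critical value of Dixon's test; chance alone gives about 1 in 20. In the control group these were Oas1a, with control replicate 2 highest at 20.2 and a gap of 0.907 of the range, Isg15, with control replicate 2 highest at 114 and a gap of 0.853, and Psmb9, with control replicate 1 highest at 148 and a gap of 0.887. In the group labelled knockout they were Rsad2, with replicate 3 highest at 277 beside a next value of 69.5 (gap 0.89), Zbp1, with replicate 1 highest at 43.9 beside 19.4 (gap 0.836), Mx2, with replicate 1 lowest at 8.98 (gap 0.907), and Xaf1, with replicate 2 lowest at 57.3 (gap 0.975).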

How the results depend on the processing

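Over the 18 alternatives, 18 of the 39 tested members kept both their direction and their side of the threshold. Neither called member was among them, since Bst2 lost its call in 9 alternatives and Ddx58 in 5. The members' median log2 difference, 0.34 as reported, was lowest under quantile normalisation, at 0.13. It was highest, at 0.48, under the scaling without muscle, erythroid and neutrophil markers and top genes. Members called higher numbered 2 as reported, 1 with no filter, 0 under quantile normalisation, 5 under that scaling, 5 with DESeq2 and 6 under the replicate block; leaving out 1 library gave 0 to 3. Members called lower numbered 0, and 0 to 1 when a library was left out. All tested genes called numbered 3461 as reported, 2018 under the replicate block and 1751 to 3841 when a library was left out. Pathway genes outside the 41 called higher numbered 25 as reported, 43 under that scaling and 16 under quantile normalisation, with 11 to 25 when a library was left out; those called lower numbered 2 as reported, 0 under that scaling, and 1 under quantile normalisation or the replicate block, and 2 to 3 when a library was left out. The cause of these changes was not tested. The replicate numbers are not stated to pair the libraries, and deviations of same-numbered libraries correlated at 0.213, -0.118, -0.233 and -0.063, so the block was no more than an alternative. Under it the calls of Ifnar2, Ifngr1, Stat3 and Mavs were lost.

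Signs also changed for some genes without a call. Under quantile normalisation these were Irf7 (-0.17), Ifih1 (-0.10), Usp18 (-0.067), Oas2 (-0.17), Rtp4 (-0.035), Xaf1 (-0.011) and Ifngr2 (0.082). Under the scaling without markers and top genes they were Oasl1 (0.089), Ifit3b (0.069), Igtp (0.093) and Ifngr2 (0.12). Igtp was 0.16 with edgeR and 0.17 with DESeq2. When each library in turn was left out, the difference ran from -0.16 to 0.23 for Irf7, -0.050 to 0.30 for Ifih1, -0.73 to 0.17 for Oas3, -0.062 to 0.24 for Oas2, -0.053 to 0.39 for Rtp4, -0.23 to 0.094 for Oasl1, -0.015 to 1.06 for Iigp1, -0.29 to 0.047 for Ifit3b, -0.47 to 0.28 for Igtp, -0.084 to 0.028 for Ifngr2 and -0.084 to 0.086 for Jak2. At 13991000 to 17411617 reads per library, Mx1 and Ifi44 were too low to be tested.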

Other observations

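Values of some MHC class I genes, picked after they were seen, differed widely between libraries of the same group. H2-T23, a non-classical MHC class I gene, had 26.3 normalised reads in control replicate 4 and 279 to 469 in the other control libraries, and H2-K1 had 622 there and 2075 to 4142 in the others. H2-T23 and H2-K1 were not called (limma adjusted p = 0.403 and 0.481). The spread was not limited to them or to that library. H2-T22 had 92.0 normalised reads in control replicate 4 and 605 to 684 in the other control libraries. H2-Q6 ran from 102 to 823 in the control libraries and from 132 to 714 in those labelled knockout.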
